A study of Mus musculus with 4 samples.

Results

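A set of 6 genes whose proteins sit on the synaptic vesicle or fill it with glutamate was followed through a list of RNA editing sites from mouse cortex: Slc17a7, Syp, Sv2a, Syn1, Syn2 and Rab3a. They were chosen by name, with earlier results of these data known. Every site deposited under these symbols was kept, which gave 92 of 28412 sites in the list and 6 of its 4206 gene symbols. The method, scDART-seq, marks N6-methyladenosine (m6A) in single cells. A cytidine deaminase, APOBEC1, is tethered to m6A by a fused YTH domain and turns nearby cytosines into uracils, which are read as C-to-T changes. All 4 sublibraries came from a single pool of papain-digested, fixed and combinatorially barcoded cortical cells (Parse Biosciences kit), with replicates 1 and 2 combined, and every sublibrary held both genotypes: APOBEC1-YTH, the active reader fusion, and APOBEC1-YTHmut, the control with a mutated YTH domain. The mice received tamoxifen at 20 mg/kg every 24 h for 5 days from an age of 6 to 8 weeks, and cortex was taken 7 days after the last dose. The sources used here name no promoter or Cre line for the fusion. The series text speaks of NeuN-sorted neuronal nuclei and total RNA, unlike the protocols of these samples, and the deposited list is named as sites of single cells from young cortex. The deposited list merges everything into 1 record per site, with a position, a strand, a gene and a whole number, called the site count below. The sources used here do not say what that number counts, and the list does not separate genotype, animal or cell type. No comparison between groups or replicates was therefore possible, and no p-value is given. Expression and read depth are not in the list, so more cells, more RNA per cell and more editing per molecule cannot be told apart in any value below.

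Synaptic vesicles store transmitter at the nerve terminal and release it on demand. In most cortical excitatory neurons glutamate is loaded by the vesicular transporter VGLUT1, encoded by Slc17a7, using the gradient made by the vesicular proton pump. Synaptophysin (Syp) and SV2A (Sv2a) are abundant membrane proteins of the vesicle, SV2A being the binding site of the antiepileptic drug levetiracetam. Synapsins I and II (Syn1, Syn2) are phosphoproteins that coat vesicles and hold them in the reserve cluster, and the GTPase Rab3A (Rab3a) cycles on and off vesicles and links them to active zone effectors. m6A is laid down mainly in the consensus DRACH (D is A, G or T, R is A or G, H is A, C or T), and tends to lie near stop codons and in 3′ UTRs. The core of that consensus is written RAC here. At a site in RAC the edited cytosine is the C that follows the A of the consensus. The list gives the edited base only, and some sites lie outside RAC.

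The sequences around the sites with the highest counts are shown first, so that the bases around the strongest signals of each gene can be read beside the values. Each line gives 21 bases of the transcript, read 5′ to 3′ from GENCODE transcripts on mm10. The 5 capitals are the places of the DRACH consensus, so that the edited base is the capital in the fourth place. For each gene the pair of sites with the highest counts is given.
Slc17a7 at 45175260: gatacccAGACTcccctgaaa
Slc17a7 at 45176124: tcccaatAAACGctctggtgt
Syp at 7651857: cccacgaAGACCccacgggtg
Syp at 7653155: tccctccAGACCccctacttt
Sv2a at 96195108: gtagctgTGACGtgttgtagt
Sv2a at 96195097: ccactccCAACGtagctgtga
Syn1 at 20861473: ctccgacTGACAtcccactct
Syn1 at 20863195: tcaacaaCGACCcccacccca
Syn2 at 115274986: tttttagTGACGaaatacaaa
Syn2 at 115274214: acttaagGAACCggactccag
Rab3a at 70758571: aagttatGAACActacacaca
Rab3a at 70758525: cctgttcTGACGtcgtgagtg
All 12 lie in RAC, as does every site of the list with a known context and a count above 3. Only some of the 12 lie in DRACH: the sites ending in G or starting with C fall outside it.

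All 6 genes were listed, which their choice had settled beforehand, because it was made with earlier results of these data known. Of the 21951 annotated protein-coding genes 17.6% were listed. The number of sites ran from 36 in Slc17a7 through 19 in Syp, 15 in Syn2, 9 in Rab3a and 8 in Sv2a to 5 in Syn1. The lower part of this order depends on how sites are counted. With counts of at least 4 there were 21 sites in Slc17a7, 14 in Syp, 9 in Syn2, 7 in Sv2a, 6 in Rab3a and 4 in Syn1, so that Sv2a passed Rab3a. With sites within 10 nt merged there were 22 in Slc17a7, 14 in Syp, 8 each in Syn2 and Sv2a, 5 in Rab3a and 3 in Syn1. Among all symbols 32.3% had 5 sites or more, the number in Syn1. Slc17a7 ranked 136th and 3.42% of symbols had at least as many. Per kb of annotated exon the order was similar, with 6.68 sites in Slc17a7, 4.04 in Rab3a, 3.65 in Syp, 2.13 in Syn2, 1.73 in Sv2a and 1.52 in Syn1, where the median symbol had 0.456. That order depends on which exons are counted: on the longest coding transcript Slc17a7 had 12 sites per kb, and Syp, with 7.33, stood above Rab3a, with 5.78. Counts at or above 20 were carried by 16 of the 92 sites, or 17.4% (95% exact binomial interval 10.3 to 26.7), against 12.1% of the whole list. Each of the 6 genes held at least 1 of these 16 sites. Among all symbols 19.2% had a highest count of 23 or more, the lowest top count of the 6 genes. Of the 16 sites 15 lay in a 3′ UTR, beside 61.9% of all sites of the list. That share was not computed for the list's sites with counts of 20 or more. The intervals here treat sites as independent, which neighbouring sites of a transcript are not, and cover counting error only.

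**Figure D1:**
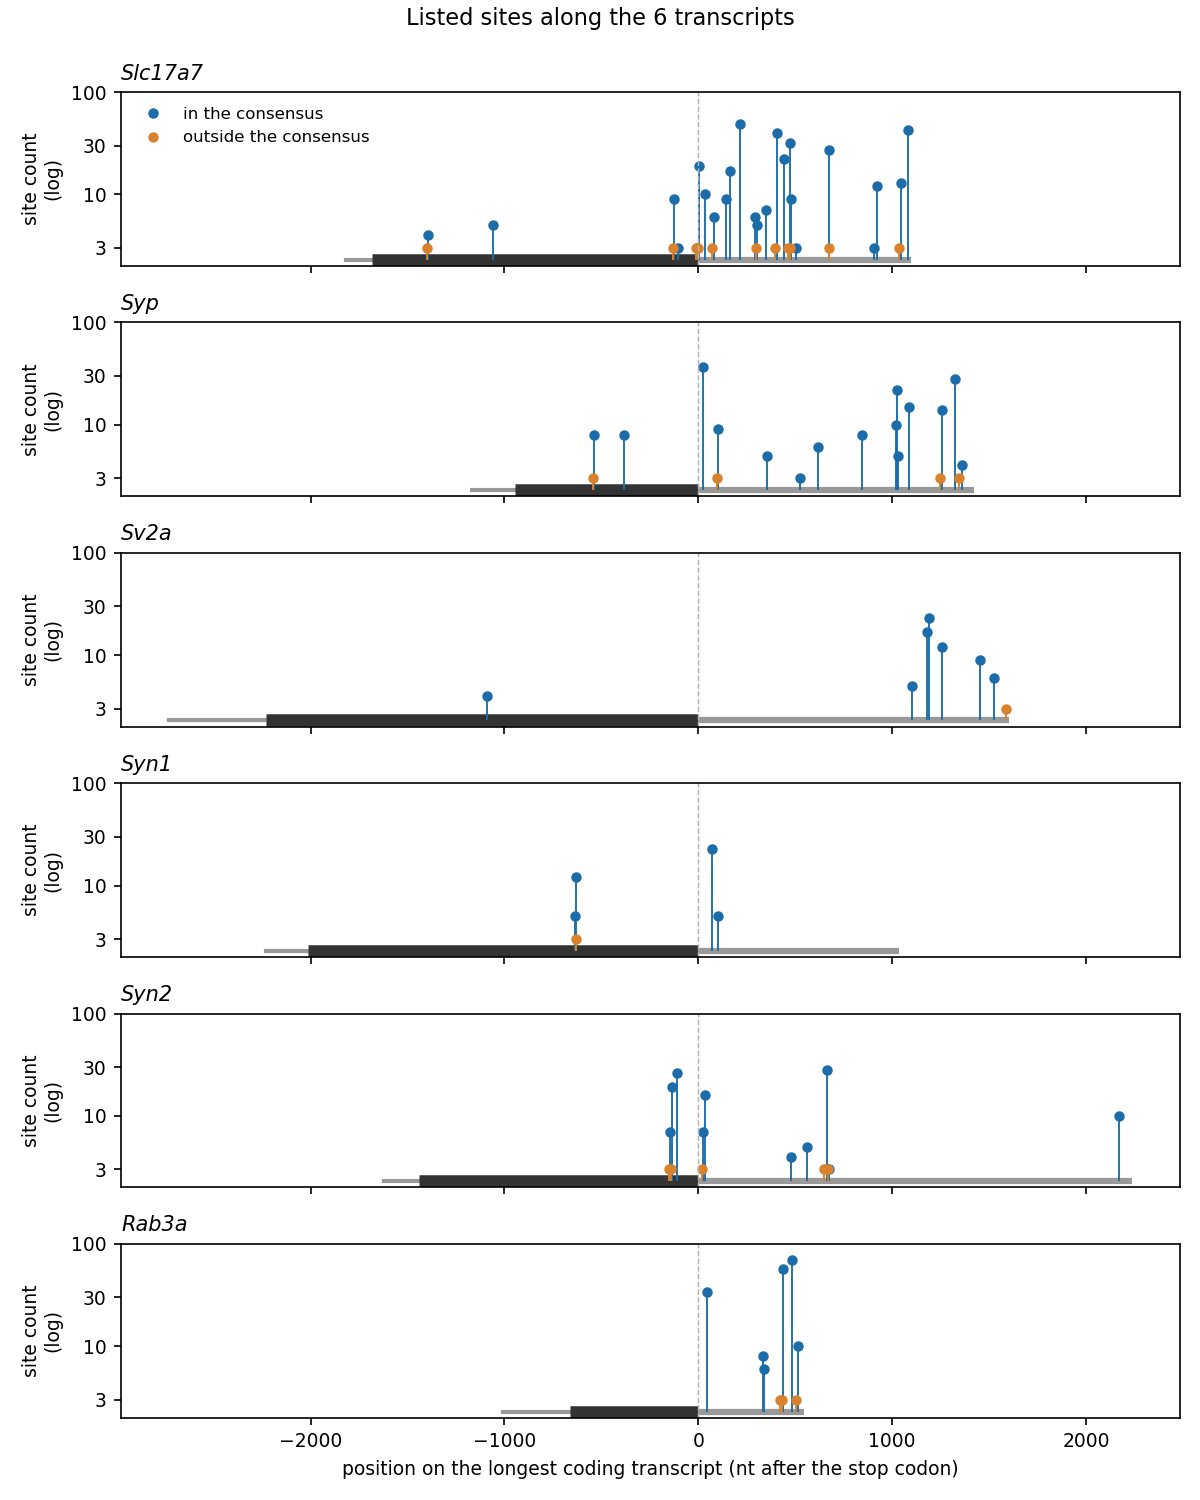
Listed sites along the longest coding transcript of each gene. The horizontal axis is the distance from the stop codon in nt, the vertical axis the site count on a log scale; the dark bar is coding sequence, the thin grey bars are UTRs, and blue and orange points are sites inside and outside the RAC consensus. In Slc17a7 sites lie at both ends of the 3′ UTR and its longest empty stretch is 229 nt, whereas in Sv2a the first 1101 nt of the 3′ UTR are empty.

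Slc17a7, on the plus strand of chromosome 7 from 45163949 to 45176142, was the most densely listed of the 6. Its site counts ran from 3 to 49 with a median of 5. The 3′ UTR held 26 sites with a median count of 8, the coding sequence 9 with a median of 3 and a highest count of 9, and the remaining site lay in an exon of a retained-intron transcript. The sites with the highest counts were all in the 3′ UTR: 49 at 216 nt after the stop codon, 43 at 1080 nt and 40 at 404 nt. The counts were thus spread, and the highest site made up 12.5% of the gene's summed count.

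The 3′ UTR of Slc17a7 was listed almost without omission. It has 20 cytosines in RAC, and 19 of them, 95.0%, were listed, and 17 had counts of at least 4. The cytosine left out lay 604 nt after the stop codon, at 45175648, in the context TGACC. Over the coding genes of the list, 12298 of 214985 such 3′ UTR cytosines were listed, or 5.72%. Among the 3272 genes with 10 or more RAC cytosines in the 3′ UTR, Slc17a7 had the second highest share, behind Snap25 with 100%, and the median gene had 2.37%. The longest stretch of this 3′ UTR without a site, 229 nt, held 0 RAC cytosines. In the coding sequence of the same transcript 5 of 33 RAC cytosines were listed, 15.2%.

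The stop codon of Slc17a7 lay inside a run of 4 sites. Sites with a count of 3 stood 11, 6 and 3 nt before the last base of the stop codon. The fourth, at 45175045 with a count of 19, was the first base of the 3′ UTR. Its context TGACC is the stop codon TGA followed by 2 cytosines, so the A before the edited base belongs to the stop codon. The same arrangement recurred in Syn1. On its transcript for the longer protein, with 706 residues, the stop codon TGA is followed directly by the cytosine at 20861473, the site with the highest count of the gene, 23. On the longest Syn1 transcript, which encodes 670 residues, the stop codon is earlier and the same base lies 71 nt after it. Among the listed coding genes 364 have a stop codon TGA followed by C on their longest transcript, and that C was listed in 17, or 4.67%.

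At the far end of Slc17a7, the site with a count of 43 lay 18 nt from the annotated transcript end. It directly follows the hexamer AATAAA, the usual signal for polyadenylation, as can be read in the sequence above. In Rab3a a site with a count of 3 lay 2 nt after the same hexamer. Of the 70 3′ UTR sites of the 6 genes, 2 had AATAAA on their strand within the 21 bases, 2.86%, beside 2.63% of the 17409 3′ UTR sites of the other genes with a full window.

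Syp, on the plus strand of the X chromosome from 7638471 to 7653256, had counts from 3 to 37 with a median of 8. Of its 19 sites 16 were in the 3′ UTR and 3 in the coding sequence. The stop codon of Syp lies in exon 6 of 7, so that nearly the whole 3′ UTR is a separate exon of 1420 nt. The highest count, 37, stood near the start of that exon, 25 nt after the stop codon, and the next, 28, stood 1323 nt after it. The highest counts of this gene were thus at the opposite ends of the 3′ UTR, with values of 3 to 9 between 98 and 842 nt. Of 29 RAC cytosines in the 3′ UTR 13 were listed, 44.8%, a share that 2.72% of the 3272 genes reached. A run of 3 sites within 10 nt, with counts of 10, 22 and 5, began 1022 nt after the stop codon.

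An antisense gene covers the 3′ UTR of Syp. Gm14703, annotated on the minus strand from 7651106 to 7657258, had 5 sites of its own in the list, with counts of 3, 4, 3, 3 and 3, all inside the last Syp exon. In 3 of the 5 the position was 2 nt from a Syp site, at 7651855, 7652447 and 7652672, and these 3 lay outside RAC on their strand. Of the Syp sites 7 lay in an exon of Gm14703, among these the count of 37, and 12 remained without them, among these the counts of 28 and 22. The sources used here do not say how strand was assigned. The cytosine is on the Syp strand in all 19, but a C on the listed strand belongs to the list as a whole. It was found at 28336 of the 28337 exonic sites with a base read. Which of the 2 transcripts the reads came from was not tested.

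Sv2a, on the plus strand of chromosome 3 from 96181151 to 96195521, had 8 sites, of which 7 lay in the 3′ UTR and 1, with a count of 4, in the coding sequence. The counts ran from 3 to 23 with a median of 7.5. The 7 sites of the 3′ UTR were gathered in its last part: the first stood 1102 nt after the stop codon, with a count of 5, and the 1101 nt before it were empty although they hold 24 RAC cytosines. In the rest of the 3′ UTR 6 of 18 RAC cytosines were listed. The highest counts were 23, 17 and 12, and the windows of the first 2 overlap in the sequences above. Unlike in the other genes, no 2 sites of Sv2a were within 10 nt of each other.

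Of the synapsins, Syn2 had more sites than Syn1. Syn1, on the minus strand of the X chromosome from 20860511 to 20921004, had 5 sites with counts of 3, 5, 5, 12 and 23. They formed small groups: 3 sites within 5 nt in exon 11, in coding sequence, and 2 sites 71 and 103 nt after the stop codon of the longest transcript. The remaining 930 nt of the 3′ UTR held 22 RAC cytosines and 0 sites. In the whole Syn1 3′ UTR 2 of 29 RAC cytosines were listed, 6.90%, near the pooled 5.72% of all listed coding genes. Among the 3272 genes with 10 or more such cytosines the median was 2.37%, and 26.9% of them reached the share of Syn1.

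Syn2, on the plus strand of chromosome 6 from 115134902 to 115282006, had 15 sites with counts from 3 to 28 and a median of 5. It has alternative ends, and the sites were not spread over them evenly. The transcripts of the shorter protein with 479 residues, known as synapsin IIb, end in a 3′ UTR of 2235 nt, which held 10 sites and in which 7 of 43 RAC cytosines were listed. The transcript of the longer protein with 586 residues, synapsin IIa, has its own 3′ UTR of 783 nt with 20 RAC cytosines, and 0 of them were listed. The 5 coding sites lie in coding sequence that both forms share, including the count of 26 at 115274214. How many molecules of each form were read is not in the list. Within the synapsin IIb 3′ UTR, 9 sites stood in the first 676 nt and the last 2168 nt after the stop codon, with a count of 10. Between them lay 1491 nt with 29 RAC cytosines and 0 sites. A run of 4 sites in exon 10, spanning 15 nt with counts of 3, 7, 3 and 19, lay in coding sequence 137 to 151 nt before the stop codon.

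Rab3a, on the plus strand of chromosome 8 from 70754679 to 70758677, had the highest count of the 6 genes, 69 at 483 nt after the stop codon, followed by 57 at 437 nt and 34 at 46 nt. Its other 6 sites had counts from 3 to 10. All 9 sites lay in the 3′ UTR of 547 nt, and 0 of the 26 RAC cytosines of its coding sequence were listed. In the 3′ UTR 6 of 12 RAC cytosines were listed. A highest count of 69 or more occurred in 5.71% of symbols, and 19.2% had a highest count of 23 or more, the lowest value among the 6 genes. The top site made up 35.8% of the summed count of Rab3a, and that of Syn1 47.9%.

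**Figure D2:**
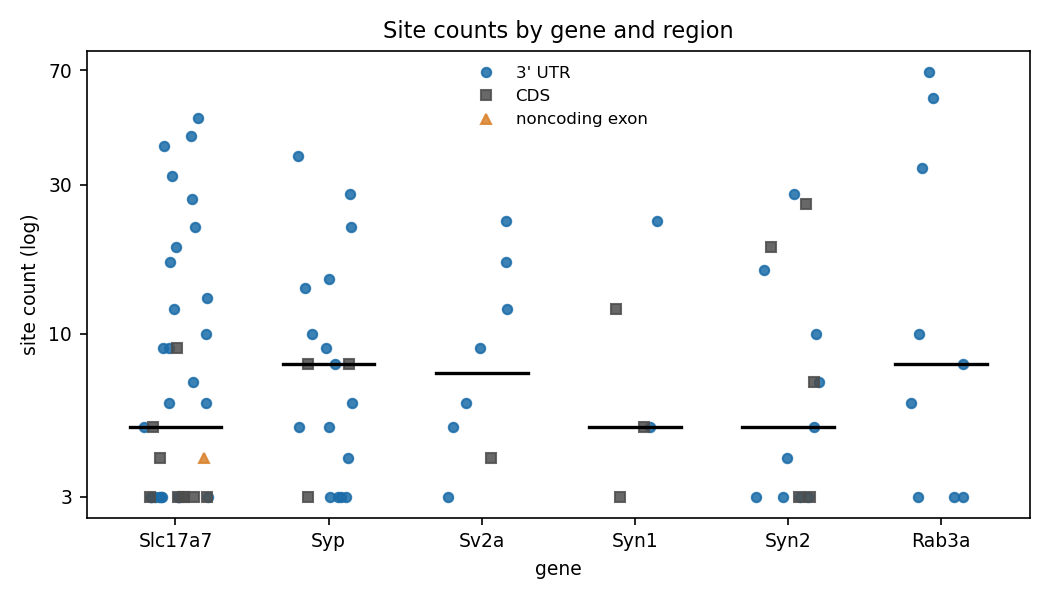
Site counts of each gene on a log scale, 1 point per site, with circles for the 3′ UTR, squares for coding sequence, a triangle for a noncoding exon and a black line at the gene's median. The ranges overlap in all 6 genes, and Rab3a alone has counts above 49.

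Across the 6 genes the 3′ UTR held 70 of 92 sites, 76.1% (95% exact binomial interval 66.1 to 84.4), beside 61.9% of the sites of the other genes. The 3′ UTR supplied 40.4% of the cytosines on their longest coding transcripts. The share ran from 40.0% in Syn1 (2 of 5) to 100% in Rab3a (9 of 9). Coding sequence held 21 sites, 22.8% (14.7 to 32.8), beside 26.1%. The 5′ UTR held 0 of 92, which allows a share of up to 3.26% by the limit of 3 sites in 92 (exact binomial upper bound 3.93%), while the other genes had 2.02%. The last exon held 77 of the 91 sites on the longest coding transcripts, 84.6%, beside 69.7% in other genes with more than a single exon, although it makes up between 32.5% (Syn1) and 61.3% (Syn2) of these transcripts. In the last 500 nt of these transcripts lay 31 of the 91 sites, 34.1% (24.5 to 44.7), beside 11.997% in other genes. This share was highest in Rab3a, with 8 of 9 sites, and lowest in Syn1, with 0 of 5. A fixed window of 500 nt takes in more of a short 3′ UTR. The 3′ UTRs of the 6 genes ran from 547 nt in Rab3a to 2235 nt in Syn2. Their lengths were not compared with those of other genes, so the 2 shares are not matched for length. Read depth along the transcript is not in the list. The part of closeness to the transcript end in the shares of the 3′ UTR and last exon was not tested. Within 400 nt of the stop codon lay 36 of 91 sites, 39.6% (29.5 to 50.4), an interval that includes the 30.3% of other genes. Within 200 nt lay 26 of 91, 28.6% (19.6 to 39.0), and the 18.0% of other genes was below that interval. The genes differed in this: 18 of 35 sites in Slc17a7 and 8 of 15 in Syn2 lay within 400 nt, against 0 of 8 in Sv2a.

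The contrast between 3′ UTR and coding sequence was also seen per available cytosine. In the 3′ UTRs of the 6 genes 53 of 175 RAC cytosines were listed, 30.3%, and in their coding sequences 13 of 256, 5.08%, beside 5.72% and 2.54% over all listed coding genes. Of the 53, 19 were in Slc17a7. Among the 3272 genes with 10 or more RAC cytosines in the 3′ UTR, the 90th percentile of the 3′ UTR share was 19.5%. Slc17a7, Syp and Rab3a stood above it. Syn2 with 16.3%, Sv2a with 14.3% and Syn1 stood below it. In each of the 6 genes the 3′ UTR share was above the coding share, by the widest margin in Slc17a7 and by the narrowest in Syn1, with 6.90% against 3.33%.

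**Figure D3:**
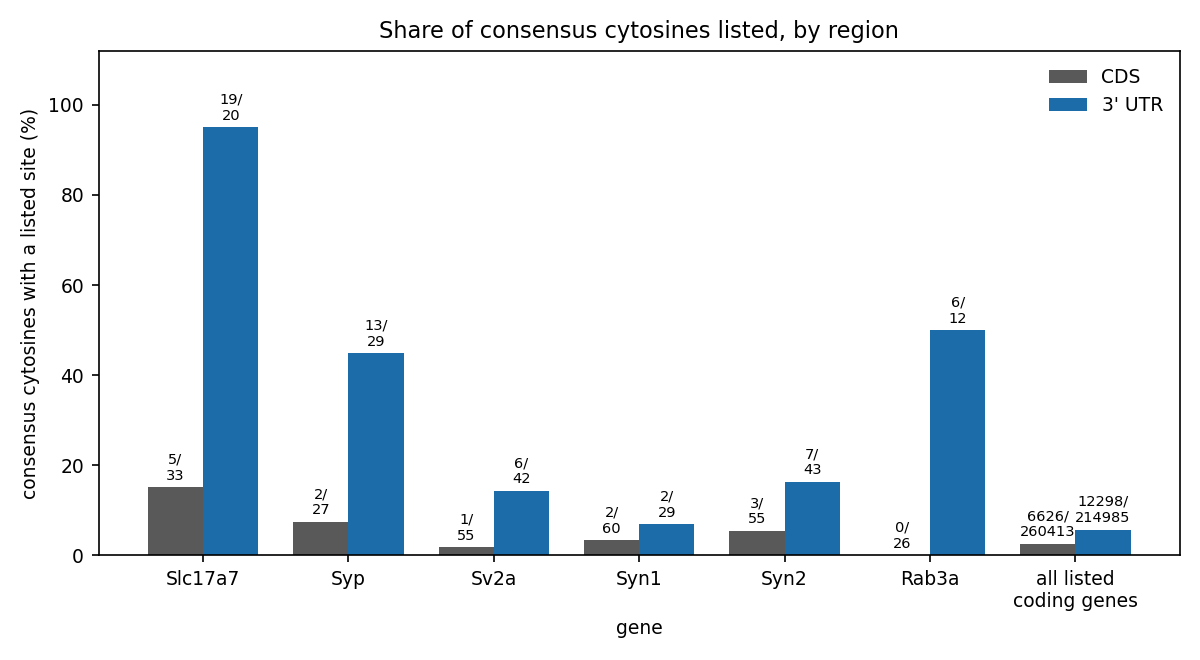
Percent of RAC consensus cytosines with a listed site in coding sequence (dark grey) and 3′ UTR (blue), on the longest coding transcript of each gene and over all listed coding genes; the numbers above the bars are listed and available cytosines. Slc17a7 stands at 95.0% in the 3′ UTR, Rab3a at 6 of 12 and Syp at 44.8%, and Syn1 at 6.90%.

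By sequence, 67 of the 92 sites lay in RAC, 72.8%, and 42 in DRACH, 45.7% (35.2 to 56.4), beside 77.8% and 55.3% in other genes. The intervals for RAC (62.6 to 81.6) and for DRACH include the values of the other genes. All 25 sites outside RAC had a count of 3, as did all 6272 in other genes, so this boundary belongs to the list as a whole. Within RAC, contexts with G after the edited cytosine are not DRACH, because of that G. They were found at 16 sites, 17.4% (10.3 to 26.7), beside 11.9% in other genes, a value inside the interval. These sites had a median count of 11 and occurred in each of the 6 genes. The context TGACG was the commonest of all, with 6 sites in Rab3a, Syn2, Sv2a, Syp and Slc17a7. It made up 6.52% of the sites of the 6 genes and 1.47% of the whole list. The counts at the 5 TGACG sites in 3′ UTRs were 57 in Rab3a, 28 in Syn2, 23 in Sv2a, 14 in Syp and 13 in Slc17a7. In Syn2 and Sv2a that site had the highest count of the gene, and the sequences are among those shown above. GGACT, often described as the preferred m6A motif, had 4 sites with counts of at most 10, which is 4.35% of the sites of the 6 genes beside 1.33% of the whole list. AAACA had 1 site, 1.09% beside 10.8%.

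The contexts with G were chosen for closer description after their values were seen. The 3′ UTRs of the 6 genes contain 5 cytosines in TGACG and all 5 were listed, beside 154 of 1892, 8.14%, over all listed coding genes. With G next, 12 of 14 RAC cytosines in these 3′ UTRs were listed, 85.7%, and with another base next 41 of 161, 25.5%. Over all listed coding genes the shares were 8.45% and 5.55%. Without Slc17a7, where nearly every RAC cytosine was listed, the shares were 9 of 11 and 25 of 144, or 81.8% and 17.4%. The cytosines with G next that were not listed both had the context GGACG, 172 nt after the stop codon in Sv2a and 7 nt after it in Syn1.

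**Figure D4:**
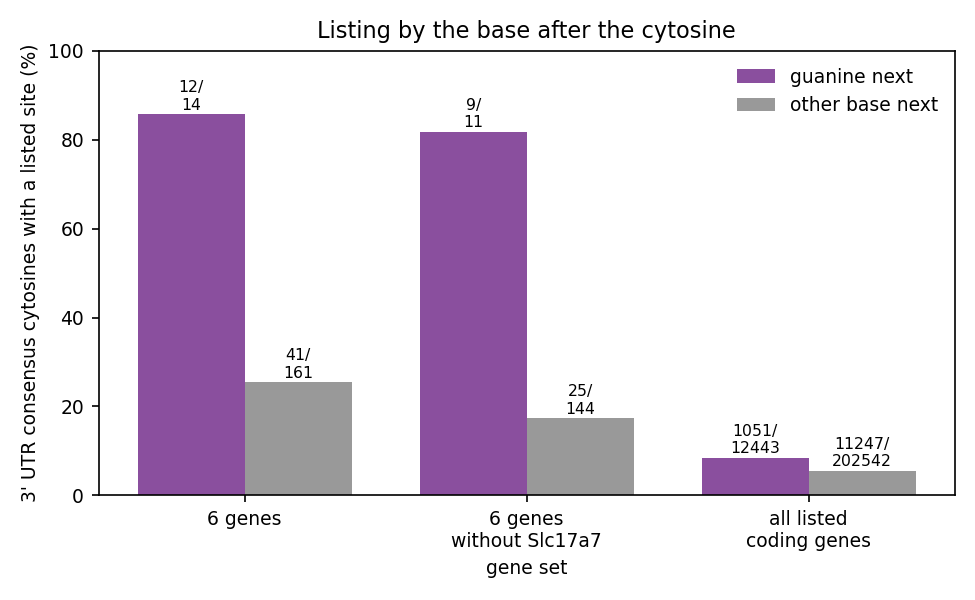
Percent of RAC consensus cytosines in 3′ UTRs with a listed site, split by whether guanine (purple) or another base (grey) follows the cytosine, for the 6 genes, for the 5 genes other than Slc17a7 and for all listed coding genes. The numbers are listed and available cytosines, and the purple bars of the 6 genes reach 85.7% and 81.8%.

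Sites outside RAC tended to sit beside a listed RAC site. Of the 25 in the 6 genes, 21 lay within 10 nt of a RAC site of the same gene, 84.0% (63.9 to 95.5). The interval includes the 67.6% of 6272 in other genes. Of those 6272, 145 had no listed RAC site in their gene, beside 0 of the 25. The median distance from a site outside RAC to the nearest RAC site was 6 nt in the 6 genes and 6 nt elsewhere. In Slc17a7 all 11 had such a neighbour, for instance the base directly after the count of 32 at 45175517. In Rab3a a site of count 3 stood 4 nt before the count of 57. The exceptions were 1 site each in Syp, Sv2a, Syn2 and Rab3a. Over all contexts, 52 of the 92 sites belonged to 20 runs with gaps of 10 nt or less.

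The close relatives of the 6 genes were listed unevenly. Of 13 paralogs 5 had a site, beside 17.6% of all annotated protein-coding genes. In the vesicular glutamate transporter family Slc17a7 had 36 of 37 sites: Slc17a6, encoding VGLUT2, had 1 with a count of 3, and Slc17a8, encoding VGLUT3, had 0. Syn3 had 3 sites, all in noncoding exons, with a highest count of 14. In the synaptophysin family Syngr1, encoding synaptogyrin 1, had 12 sites, with 10 in the 3′ UTR and a highest count of 21, and Synpr, Sypl, Syngr2 and Syngr3 had 0. In the other families a paralog carried more sites than the gene studied. Sv2b had 63 sites with 56 in the 3′ UTR and a highest count of 108, beside 8 in Sv2a, and Sv2c had 0. Per kb of exon this was 7.52 sites in Sv2b and 1.73 in Sv2a. Rab3c had 42 sites, beside 9 in Rab3a, but 3.49 per kb of exon beside 4.04, and its highest count, 29, was below the 69 of Rab3a. Rab3b and Rab3d had 0. A gene with 0 sites is only missing from the list, which holds neither its expression nor its depth.

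**Figure D5:**
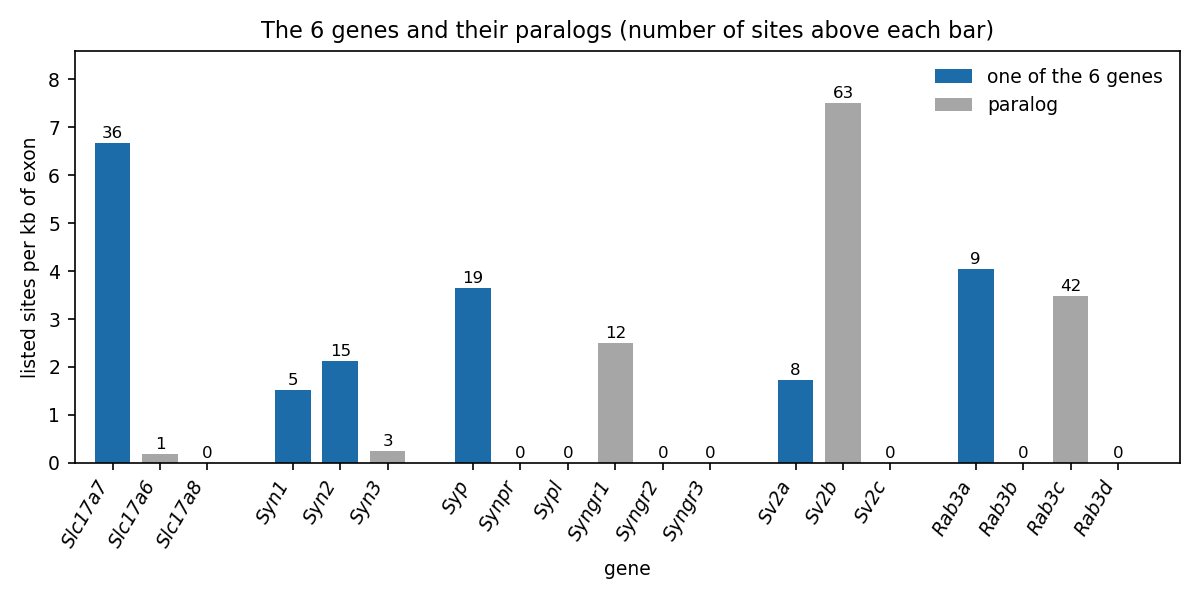
Listed sites per kb of annotated exon for the 6 genes (blue) and their paralogs (grey), by family, with the number of sites above each bar. Sv2b, at 7.52, stands above every one of the 6 genes, and 8 of the 13 paralogs have no site.

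The machinery around these proteins was also counted. The lists below share some genes, such as Syt1 and Vamp2, and their counts stand beside the 17.6% of all annotated protein-coding genes with a site. Of 19 other vesicle membrane and associated proteins 9 had a site, led by the calcium sensor Syt1 with 139, the SNARE protein Vamp2 with 22 and the chaperone Dnajc5 with 17. The vesicular transporters for GABA (Slc32a1), monoamines (Slc18a2) and acetylcholine (Slc18a3) had 0, as did the vesicular zinc transporter Slc30a3. Of 13 genes of the Rab3 cycle 7 had a site, with at most 9, in the effector Rims2, and 7 in the effector Rph3a. Of 13 genes of glutamate supply 10 had a site, led by the astrocyte transporters Slc1a2 with 251 and Slc1a3 with 65 and by glutamine synthetase, Glul, with 47. Of 15 proton pump genes 12 were listed, led by Atp6v1g2 with 45 sites and a highest count of 319, Atp6v1a with 25 and Atp6v0c with 14. The SNARE fusion machinery was listed in full, 13 of 13 genes, led by Syt1, Snap25 with 80 sites and Cplx2, which clamps and promotes fusion, with 65. Of 10 active zone genes 7 were listed, led by the scaffolds Pclo with 128, of which 127 were in coding sequence, Bsn with 50 and Erc2 with 16. Of 21 genes of vesicle endocytosis 16 were listed, led by the phosphatase Synj1 with 48, dynamin 1, Dnm1, with 45 and clathrin heavy chain, Cltc, with 22. The median number of sites was 12 over the 6 genes, 12 over their 5 listed paralogs and 2 over all symbols of the list. Over listed genes it was 4 in the Rab3 cycle, 5.5 in the proton pump, 7 for the other vesicle proteins, 7 for glutamate supply, 8.5 in endocytosis, 14 at the active zone and 22 in the SNARE machinery.

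Markers of several cell types were listed, and their counts stand beside the 17.6% of all annotated protein-coding genes with a site. Of 6 markers each, 5 of excitatory neurons had a site (all but Tbr1), 2 of inhibitory neurons (Gad2 and Sst, with Slc32a1, Gad1, Pvalb and Vip at 0), 5 of astrocytes (all but Gfap), 6 of oligodendrocytes, 2 of microglia (Csf1r and Cx3cr1) and 6 of endothelial cells. Slc17a7 itself is among the excitatory markers. The part of cell type in the values of the 6 genes was not tested.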

How the data were processed

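Single-cell RNA libraries of mouse cortex from 4 sublibraries of 1 pool were represented by a single deposited list. The authors deposited 1 whole number per site, read here as an unnormalized count; per the file, which has no header, its meaning is not stated, and its lowest value is 3. STAR 2.7.5 and mm10 are named in the submitters' processing notes, and the series text names Bullseye for calling C-to-U sites. The sources used here give no filters, no depth and no account of how the YTHmut control was used.

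Positions were converted to 1-based and matched to GENCODE M21: 27873 of 28412 sites by symbol and strand, 496 by position and 43 not at all. All 92 sites studied had a C on their strand. A base in several kinds of region was assigned to the 3′ UTR first, then to CDS, 5′ UTR and noncoding exon. Distances used the longest coding transcript with a stop codon. Sequence came from the annotated transcripts, so introns have none. Shares have 95% Clopper-Pearson intervals. Placement was tested on simulated data: 600 of 600 simulated sites in 200 genes returned their region and distance. Python 3.11.15 and scipy 1.17.1 were used.

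The 6 genes and all lists were chosen with earlier results of these data known. The text names all 6 genes, their paralogs and up to 3 genes with the most sites per list; genes outside these rules (Snap25 as comparison, Gm14703, the contexts with G, genes named for 0 sites) were chosen after their values were seen. Tprg1l matched no annotated symbol. A gene that the rule names in the list of the Rab3 cycle is not reported here. Alternatives are described in the closing section.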

Additional observations from a re-analysis of the deposited data

How the results depend on the processing

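The direction of each comparison was described without a test, so the alternatives show only how far values moved. The 92 sites fell to 61 with a count of 4 or more, to 61 at or above the list's median count, which is also 4, and to 60 when sites within 10 nt were merged. The share near the stop codon was 28.6% with a window of 200 nt. The DRACH share was 62.7% among RAC sites only and 60.7% at a count of 4 or more; both leave out sites outside RAC by construction. The median site count, 6, was 9 for RAC sites only and 9.5 after merging. Without each gene in turn, the 3′ UTR share ran from 73.5% to 78.6%, the share near the stop codon from 32.1% to 43.4%, the DRACH share from 42.5% to 48.2% and the median count from 6 to 6.5. Merging or a count of 4 or more also turned the order of Sv2a and Rab3a. Syp kept 12 sites outside Gm14703 exons. On the longest coding transcript, Slc17a7 had 12 sites per kb, Syp 7.33, Rab3a 5.78 and Syn2 3.89, which turned the order of Rab3a and Syp; fewer exons are counted there by construction. Of 96 alternative values 76 stayed near the reported ones. Near is a wide term here: inside the interval for values that have an interval, and within 1.5-fold for the others. The 67 sites in RAC thus count as near the 92. No paired analysis was possible because sites carry no sample or replicate names, so that no library could be left out either. Read depth limits every 0 above and is unknown.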
